A study of Mus musculus with 4 samples.

Results

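Sfrp2 and Sp5 double-positive cells of the mouse otic vesicle were chosen by their raw UMI counts in single-cell libraries (a UMI, unique molecular identifier, marks 1 captured transcript). A cell first had to pass an otic gate with at least 1 Epcam UMI, at least 3 UMIs of Hmx2, Hmx3, Lmx1a and Oc90 summed, no Trp63 and at most 2 Neurod1 UMIs. Within that gate it had to hold at least 2 Sfrp2 and at least 1 Sp5 UMIs, and at most 1 UMI each of Neurog1, of Otx1 and Otx2 summed, and of Rorb. This left 622 of 5278 otic-gate cells, out of 14985 cells that passed the cell filter and 19567 barcodes. There were 188 such cells in cKO 1, 324 in cKO 2, 54 in control 1 and 56 in control 2. The gate was chosen with the genotype differences of its genes known, so the levels of its 13 genes and the share of cells it takes are descriptions with no test.

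The study measured single-cell RNA in 4 libraries of Pax2-Cre lineage cells, GFP-sorted from dissected otic vesicles with their cochleovestibular ganglion and adjacent tissue at E10.5 (34 to 36 somites, Swiss-Webster strain). The 2 conditional knockout (cKO) libraries came from embryos with Pax2-Cre, homozygous floxed Tbx2 and Tbx3 (Tbx2f/f;Tbx3f/f) and 1 Rosa26-GFPf reporter allele, and the 2 control libraries from Pax2-Cre;Rosa26-GFPf/+ embryos, so that Cre and the GFP reporter were common to both groups. The labels name 2 cKO and 3 control embryos with pooled vesicles and do not say how embryos were divided among libraries, so p-values reflect only how these libraries vary, and that variation may be technical. Cre acts wherever Pax2 has been active, which includes ganglion and hindbrain as well as otic epithelium.

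The otic vesicle forms from a placode of head ectoderm, and its cells are progressively assigned to dorsal, ventral, sensory, nonsensory and neural fates by WNT, BMP, FGF, Hedgehog, Notch and retinoic acid signals. Tbx2 and Tbx3 are T-box transcription factors that act mainly as repressors and are active in the otic epithelium. Sfrp2 is a secreted protein that binds WNT ligands, and Sp5 is a zinc finger factor that is a direct target of WNT signalling in many tissues.

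The libraries held 106769747 to 128205192 UMIs, and the summed Sfrp2+Sp5+ cells 9505661 and 15149840 UMIs in the cKO 1 and cKO 2 libraries against 2575523 and 2575564 in control 1 and control 2. The median Sfrp2+Sp5+ cell held 45392 and 42202.5 UMIs in cKO and 42521.5 and 42818 in control libraries, which was above the 36787 and 34152 (cKO) and 32137 and 30639 (control) of the other otic-gate cells. Their median mitochondrial share was 1.17% and 1.23% in cKO and 2.29% and 2.51% in control libraries. Levels are given as CPM, a gene's UMIs per 1000000 UMIs of the summed cells. Markers of cells outside the otic epithelium stood apart in control 2. There the Sfrp2+Sp5+ cells summed to 57.5 CPM of 5 endothelial, 47.4 CPM of 6 mesenchymal and 210 CPM of 7 sensory neuron markers, with none of these markers at 0. Of the control 2 cells 16.1% were called doublets, against 1.85% to 4.32% in the other libraries. With doublets removed the sums in control 2 were 69.5 CPM (endothelial), 3.78 CPM (mesenchymal) and 117 CPM (neuronal). In the other 3 libraries the endothelial sums were 0.777 to 1.12 CPM with Cdh5 at 0 in each, the mesenchymal sums 0.777 to 8.63 CPM and the neuronal sums 37.3 to 69.4 CPM. The 5 leukocyte markers summed to 22.8 and 14.0 CPM in cKO and 1.55 and 0.388 CPM in control cells, and 212 of 217 UMIs in cKO 1 and 200 of 212 in cKO 2 came from 1 cell each. Neural crest and glial markers summed to 42.8 and 46.3 CPM in cKO and 114 and 118 CPM in control cells. Xist was at 262 and 0.066 CPM in the cKO 1 and cKO 2 cells and at 439 and 445 CPM in the control 1 and control 2 cells, so cKO 2 stood apart in this X-inactivation transcript. The part of these differences in the results was not tested, beyond the fits without single libraries given below where they change a call.

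Among otic-gate cells, Sfrp2+Sp5+ cells made up 24.4% (95% exact binomial interval 21.4 to 27.6) in cKO 1 and 24.7% (22.4 to 27.1) in cKO 2. They made up 3.20% (2.42 to 4.16) in control 1 and 3.71% (2.82 to 4.79) in control 2. The group means were 24.5% ± 0.207 in cKO and 3.46% ± 0.358 in control libraries (SD, n = 2 libraries each), a ratio of 7.09. Both cKO libraries lay far above both control libraries, and the intervals, which cover counting error only, did not overlap. Of all cells past the filter the share was 5.62% and 8.39% in cKO and 1.34% and 1.49% in control libraries.

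**Figure D1:**
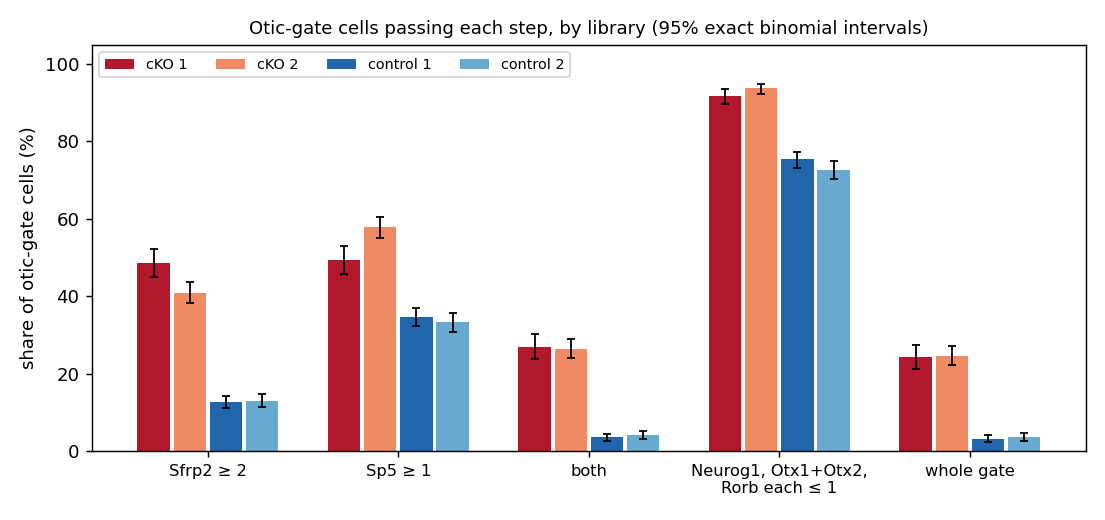
Share of otic-gate cells (%, vertical axis) that passed each step of the gate in the 2 cKO libraries (red) and the 2 control libraries (blue). Bars are single libraries with 95% exact binomial intervals, and the whole gate took 24.4% and 24.7% of cKO and 3.20% and 3.71% of control otic-gate cells.

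Of the single steps, the Sfrp2 minimum differed most between genotypes. At least 2 Sfrp2 UMIs were held by 48.6% and 41.0% of cKO against 12.7% and 13.1% of control otic-gate cells. At least 1 Sp5 UMI was held by 49.4% and 57.8% of cKO against 34.7% and 33.3% of control cells, and both by 27.0% and 26.5% against 3.62% and 4.17%. The 3 upper limits were met by 91.8% and 93.7% of cKO against 75.4% and 72.6% of control cells. The limit on the ventral factors Otx1 and Otx2 was met by 97.3% and 97.9% against 81.3% and 78.7%. The denominator also depends on genes that differ by genotype, since Oc90 in the otic gate stood at 63.5 and 42.6 CPM in the other otic-gate cells of cKO and at 424 and 629 CPM in those of control libraries.

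Cells from control libraries sat at the edge of the gate. The median Sfrp2 count was 7 and 5 UMIs in cKO 1 and cKO 2 cells and 2 in both control libraries. In control 1, 48 of 54 cells had 2 or 3 Sfrp2 UMIs, as did 48 of 56 in control 2, against 59 of 188 in cKO 1 and 114 of 324 in cKO 2. Just inside the gate, cells with 2 Sfrp2 UMIs held 74.3 and 53.9 CPM of Cxcl12 in cKO and 9.32 and 18.1 CPM in control libraries, and just outside it, cells with 1 Sfrp2 UMI held 50.7 and 37.5 CPM against 17.1 and 12.2 CPM. At the Sp5 limit Cxcl12 was higher outside the gate. Cells with 1 Sp5 UMI held 108 and 68.1 CPM in cKO and 2.62 and 7.83 CPM in control libraries. Cells with no Sp5 but at least 2 Sfrp2 UMIs held 131 and 146 against 16.1 and 15.0 CPM. In cKO, Sox3 was at 13.2 and 9.93 CPM with 1 Sp5 UMI and 12.8 and 9.20 CPM with none. Napsa was at 3.13 and 4.79 against 0.751 and 0.730 CPM, and Cited4 at 45.7 and 29.8 against 34.5 and 37.7 CPM. With at least 3 Sfrp2 UMIs the mean share was 19.0% in cKO and 1.20% in control otic-gate cells. When each cell was thinned to 20000 UMIs before gating, a step chosen after seeing the data, the share was 8.74% and 8.51% in cKO and 0.615% and 1.51% in control libraries. Thinned to 10000 UMIs it was 2.83% and 2.60% in cKO, 0.382% in control 2, and 0 of 1092 cells in control 1, where the exact interval reached 0.337%. The share therefore moved with depth, while cKO libraries stayed above control libraries at each of these settings.

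The given markers of these cells were checked next. Sox3, a SOXB1 progenitor factor, stood at 12.7 and 10.96 CPM in cKO and 2.72 and 3.11 CPM in control cells. Cxcl12 (ENSMUSG00000061353, chromosome 6 from 117168535 to 117181367), the ligand of the chemokine receptor Cxcr4, stood at 103 and 62.7 CPM in cKO and 9.71 and 17.9 CPM in control cells. Cited4, a CBP/p300-binding coactivator, stood at 43.1 and 32.8 CPM in cKO and 15.1 and 18.2 CPM in control cells. Both cKO libraries were above both control libraries for all 3 genes. Cxcl12 rose (log2 change 2.70, SE 0.30, adjusted p = 1.51e-04), as did Sox3 (2.13, SE 0.31, adjusted p = 7.88e-04) and Cited4 (1.29, SE 0.20, adjusted p = 0.00116). Without cKO 1, Sox3 (2.03, adjusted p = 0.069) and Cited4 (1.10, adjusted p = 0.075) did not pass, and neither did Cited4 when cells were gated after thinning to 20000 UMIs (1.10, adjusted p = 0.085).

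Napsa, which encodes the aspartic protease napsin A, had 75 and 166 UMIs in the cKO 1 and cKO 2 cells and none in either control library. Against a floor of 3 UMIs per control library it was at least 8.09-fold higher in cKO cells. It passed the filter on low counts through the cKO libraries alone, so no test is given. Napsa was also present in leukocyte-like cells of all 4 libraries, which held a Napsa UMI in 10 to 14 of 39 to 52 cells. Of the cKO UMIs, 75 and 164 came from Sfrp2+Sp5+ cells without any UMI of 5 leukocyte markers.

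After thinning to 10000 UMIs, Cxcl12 was found in 53.2% and 41.4% of cKO cells and in 9.26% and 12.5% of control cells, against 35.4% and 29.6% (cKO) and 6.25% and 6.17% (control) of other otic-gate cells and 0% of leukocyte-like cells. Without thinning it was found in 91.0% and 79.6% of cKO and 29.6% and 41.1% of control Sfrp2+Sp5+ cells. In other otic-gate cells, without thinning, Sox3 was found in 23.3% and 17.5% of cKO and 3.07% and 3.58% of control cells. Cited4 was found there in 38.1% and 41.0% against 21.3% and 24.5%, and Napsa in 4.29% and 5.86% against 0.613% and 0.344%. Higher detection of these markers in cKO was thus not particular to Sfrp2+Sp5+ cells. Among Sfrp2+Sp5+ cells, none of Sox3, Cxcl12, Cited4 and Napsa was found in 3.72% and 5.86% of cKO cells, but in 42.6% and 41.1% of control cells. All 4 were found in 9.57% and 5.86% of cKO cells and in none of the control cells. After thinning to 10000 UMIs none was found in 28.2% and 35.2% of cKO cells and in 81.5% and 80.4% of control cells. The cells are therefore called here by the 2 genes that select them.

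**Figure D2:**
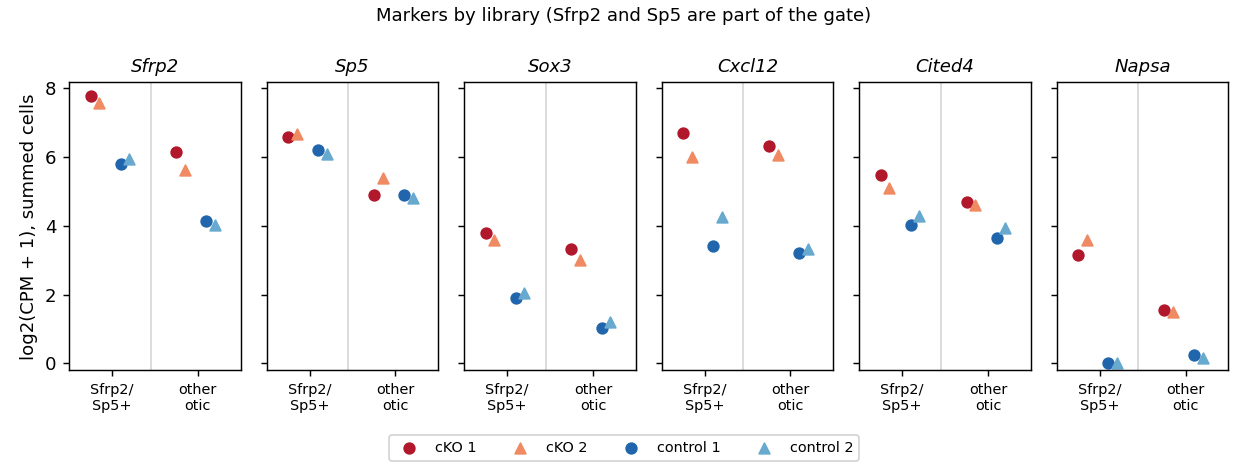
Levels of the 6 markers, log2(CPM + 1) of summed cells (vertical axis), in Sfrp2+Sp5+ cells (left in each panel) and other otic-gate cells (right), with cKO libraries in red and control libraries in blue. Sfrp2 and Sp5 select the cells, Cxcl12 was at 103 and 62.7 CPM in cKO and 9.71 and 17.9 CPM in control Sfrp2+Sp5+ cells, and Napsa was at 0 in both control libraries.

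Set beside other otic-gate cells of the same library, which is a description since the gate picks cells by expression, the Sfrp2+Sp5+ cells were highest over the others in Gal, the neuropeptide galanin precursor, with a mean log2 difference of 2.24 over the 4 libraries on the CPM + 1 scale. Gal stood at 4.42 and 5.74 CPM in cKO and 10.1 and 20.2 CPM in control Sfrp2+Sp5+ cells, but at 0.797 to 1.24 CPM in the other otic-gate cells. Next came Fgf18, an FGF ligand (1.64), Tnfaip6, a hyaluronan-binding matrix protein (1.23), the POU factor Pou3f3 (1.18), Ripply3, a corepressor that binds T-box proteins (0.95), Vav3, a guanine nucleotide exchange factor (0.94), the noncoding neighbour of Pou3f3 Pantr1 (0.89), Cdk6, a G1 kinase (0.86), the noncoding Crnde (0.83) and Pax2, the otic and midbrain paired-box factor (0.83).

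Pax2 stood at 95.4 and 91.8 CPM in cKO and 109 and 83.9 CPM in control Sfrp2+Sp5+ cells, where the groups overlapped, and at 40.6 and 42.1 against 59.9 and 75.4 CPM in the other otic-gate cells. Lowest relative to other otic-gate cells were the metalloprotease gene Adamts9 (-2.13), the homeobox gene Prrx2 (-2.01) and Igfbp5, an IGF-binding protein (-1.96). Prrx2 stood at 22.9 and 29.7 CPM in cKO and 28.0 and 17.9 CPM in control Sfrp2+Sp5+ cells, against 201 and 159 (cKO) and 64.4 and 49.1 CPM (control) in the others. Among 7512 genes with at least 10 CPM, 18.8% were higher in Sfrp2+Sp5+ cells in 4 of 4 libraries, and 20.1% of 7677 were lower, so a shared sign is common.

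Between genotypes, 2304 of 11414 tested genes changed in Sfrp2+Sp5+ cells (20.2%), with 1273 up (11.2%) and 1031 down (9.03%) at an adjusted p under 0.05 by edgeR's quasi-likelihood test. Of these, 159 rose (1.39%) and 332 fell (2.91%) by more than 2-fold, and the median over all tested genes was -0.02. In the other otic-gate cells 4761 of 14847 genes changed (32.1%), with 2557 up (17.2%) and 2204 down (14.8%). The number of calls in Sfrp2+Sp5+ cells rested on both cKO libraries: 39 genes were higher and 51 lower without cKO 1, 68 and 75 without cKO 2, and 657 lower without control 2. Of 104 named genes, 60 lost their call without cKO 1 and 56 without cKO 2, each keeping its direction. Gating after thinning to 20000 UMIs left fewer cells. There 37 named genes stayed as they were, 46 lost their call and 2, Mki67 and Top2a, turned sign. The remaining named genes did not pass the filter on low counts in that fit. The libraries of the 2 groups did not overlap for 63.4% of tested genes.

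The targeted genes were still detected. Tbx3 stood at 9.57 and 7.85 CPM in cKO and 31.8 and 35.3 CPM in control Sfrp2+Sp5+ cells (log2 change -1.84, SE 0.18, adjusted p = 5.82e-05). Tbx2 stood at 59.4 and 65.0 CPM in cKO and 111 and 100.2 CPM in control cells (-0.64, SE 0.10, adjusted p = 0.00127). For Tbx2 the adjusted p was 0.11 without cKO 1 and 0.075 without cKO 2. After thinning to 20000 UMIs neither passed (Tbx3 -1.63, adjusted p = 0.085, and Tbx2 -0.38, adjusted p = 0.34). The labels do not give the deleted exons, and the kit counts 3′ ends, so UMIs left in cKO cells do not measure the deletion. Tbx1, another otic T-box gene, also fell (-1.12, adjusted p = 4.81e-04), with an adjusted p of 0.05001 without cKO 1 and 0.0600 without cKO 2.

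BMP pathway genes were lower in cKO Sfrp2+Sp5+ cells. Of 14 tested members of a 19-gene list, 10 fell and 0 rose, with a median log2 change of -0.76, against 9.03% of all tested genes falling. In other otic-gate cells 8 of 18 fell and 1 rose (median -0.24). The ligand gene Bmp4 (ENSMUSG00000021835, chromosome 14 from 46383520 to 46390669 in mm10) stood at 9.36 and 7.06 CPM in cKO and 65.6 and 58.2 CPM in control Sfrp2+Sp5+ cells, with both cKO libraries well below both control libraries (-2.82, SE 0.17, adjusted p = 1.67e-06). In the other otic-gate cells Bmp4 stood at 41.5 and 39.6 CPM in cKO and 45.5 and 42.4 CPM in control libraries (0.02, adjusted p = 0.842). The difference between the cell sets, tested as an interaction of genotype and cell set with library as a block, was -2.83 (SE 0.15, adjusted p = 2.79e-09).

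Msx2 (ENSMUSG00000021469, chromosome 13 from 53466884 to 53473074), a homeobox gene induced by BMP signals, stood at 2.42 and 2.05 CPM in cKO and 19.8 and 17.5 CPM in control Sfrp2+Sp5+ cells (-2.95, SE 0.26, adjusted p = 2.52e-05). In other otic-gate cells it stood at 22.3 and 24.5 CPM in cKO and 31.9 and 33.6 CPM in control libraries (-0.34, adjusted p = 0.0132), and the interaction was -2.62 (SE 0.24, adjusted p = 5.59e-06). The interactions of Bmp4 and Msx2 passed in every alternative that was fitted. Its relative Msx1 stood at 14.1 and 11.4 CPM in cKO and 46.2 and 40.0 CPM in control Sfrp2+Sp5+ cells (-1.65, SE 0.17, adjusted p = 7.75e-05), with an interaction of -1.68 (adjusted p = 3.21e-05). Among cells with at least 3 Sfrp2 UMIs Msx1 was at -0.58 and did not pass (adjusted p = 0.24). Bambi, a decoy receptor and BMP target, stood at 12.1 and 13.0 CPM in cKO and 43.5 and 56.3 CPM in control cells (-1.86, SE 0.16, adjusted p = 1.90e-05), with an interaction of -1.27 (adjusted p = 7.12e-05). After thinning to 20000 UMIs the changes of Msx1 (-1.69, adjusted p = 0.071) and Bambi (-2.11, adjusted p = 0.074) did not pass.

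The 6 called genes beyond these 4 were the target genes Id1, Id2 and Id3, the inhibitor Smad7 and the receptors Bmpr1a and Bmpr2, whose log2 changes ran from -1.07 (Smad7) to -0.62 (Bmpr1a). Bmp2 (0.52), Bmp7 (-0.20), Bmpr1b (-0.30) and Smad6 (-0.46) did not pass. The count of 10 fallen genes was the same without either control library and with doublets removed, and it was 4 of 13 without cKO 1 or without cKO 2 and 3 of 10 after thinning to 20000 UMIs. Fst, which encodes the activin and BMP antagonist follistatin, stood at 29.0 and 39.3 CPM in cKO and 7.38 and 7.77 CPM in control cells and rose (2.31, SE 0.23, adjusted p = 6.80e-05). After thinning to 20000 UMIs its change was 1.08 (adjusted p = 0.14). For the interaction of genotype and cell set, 1.21% of 13996 tested genes passed, 49 higher (0.35%) and 121 lower (0.865%) in Sfrp2+Sp5+ cells, and in the BMP list 7 of 16 were lower and 0 higher.

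**Figure D3:**
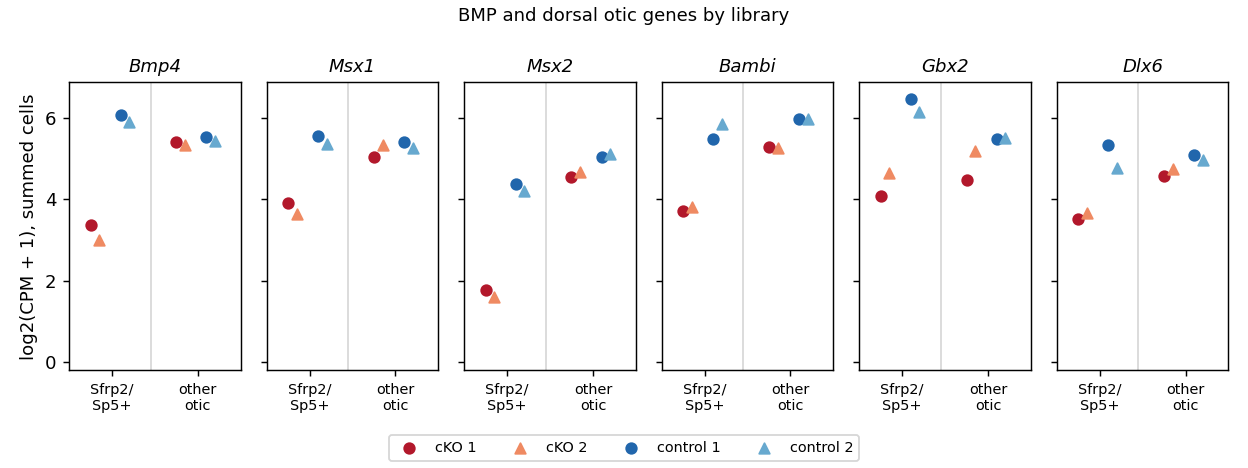
Levels of 4 BMP pathway genes and 2 further dorsal otic genes, log2(CPM + 1) of summed cells (vertical axis), in Sfrp2+Sp5+ cells and other otic-gate cells of the 2 cKO (red) and 2 control (blue) libraries. Bmp4 was at 9.36 and 7.06 CPM in cKO and 65.6 and 58.2 CPM in control Sfrp2+Sp5+ cells, while in other otic-gate cells it was at 41.5 and 39.6 against 45.5 and 42.4 CPM.

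Dorsal otic genes, a list that shares Bmp4, Msx1 and Msx2 with the BMP list, fell in all 6 tested cases outside the gate genes (median -1.74). Of all tested genes 9.03% fell. The interaction was lower for 6 of 8 dorsal genes, against 0.865% of all genes tested for it. In other otic-gate cells 2 of 8 fell (median -0.21). Gbx2, a homeobox gene needed for the endolymphatic duct and dorsal vestibule, stood at 15.99 and 23.8 CPM in cKO and 87.7 and 69.5 CPM in control Sfrp2+Sp5+ cells (-1.83, SE 0.18, adjusted p = 5.14e-05). Its interaction was -1.36 (adjusted p = 1.29e-05). Dlx6, a distal-less factor of the dorsal vesicle, stood at 10.4 and 11.7 CPM in cKO and 39.6 and 26.4 CPM in control cells (-1.44, SE 0.20, adjusted p = 6.67e-04), with an adjusted p of 0.092 without cKO 1, 0.070 without cKO 2 and 0.052 after thinning. With thinning 2 of 4 dorsal genes fell. Both cKO libraries were below both control libraries for the 2 genes.

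FGF genes moved in both directions. Of 17 tested, 9 rose and 4 fell (median 0.55), against 11.2% and 9.03% of all tested genes. The 9 include Fgf15, which passed the filter on low counts through the cKO libraries alone. Fgf8 and Fgf20, also among the 9, needed the cKO libraries to pass it, so no test within Sfrp2+Sp5+ cells is given. In other otic-gate cells 7 of 21 rose and 6 fell (median 0.21). Of 21 interactions 1 was higher, that of Fgf8, and 0 were lower. Fgf3, a ligand of otic induction, stood at 22.5 and 19.2 CPM in cKO and 3.49 and 1.94 CPM in control Sfrp2+Sp5+ cells (3.05, SE 0.30, adjusted p = 5.82e-05). An Fgf3 UMI was found in 37.2% and 30.9% of cKO and 5.56% and 1.79% of control Sfrp2+Sp5+ cells. In other otic-gate cells it was found in 32.4% and 24.9% of cKO and 7.66% and 5.09% of control cells. Higher Fgf3 detection in cKO was thus not particular to Sfrp2+Sp5+ cells. Fgf8, a ligand of the placode and early vesicle, stood at 22.4 and 10.7 CPM in cKO and 1.16 and 2.33 CPM in control Sfrp2+Sp5+ cells. Both cKO libraries were above both control libraries, cKO 1 the highest. Without cKO 1 Fgf8 had a log2 change of 2.72, and after thinning one of 3.96, both given without a test. In other otic-gate cells Fgf8 stood at 2.17 and 1.52 CPM in cKO and 0.8004 and 1.41 CPM in control libraries, and its interaction was 2.44 (SE 0.48, adjusted p = 0.0110).

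Fgf15 had 78 and 154 UMIs in cKO and 1 and 0 in control Sfrp2+Sp5+ cells, a ratio of 48.5 with a 95% counting interval of 8.61 to 1923. UMIs were pooled over the libraries of each group, so the interval leaves out variation between libraries and is no test. Fgf20, a prosensory ligand, stood at 7.26 and 5.54 CPM in cKO and 1.94 and 0 CPM in control cells, a log2 change of 2.80 given without a test. The ligand Fgf10, which is needed for vestibular growth, fell (-1.20, adjusted p = 0.00473), with an adjusted p of 0.12 without cKO 1 and 0.075 without cKO 2. Among cells with 2 or 3 Sfrp2 UMIs, where cKO and control cells are closest in the gating gene, 3 of 15 FGF genes rose and 2 fell (median 0.04). Without cKO 1 the counts over the list were 2 up and 0 down, and without cKO 2 they were 3 up and 0 down. After thinning to 20000 UMIs 1 of 14 rose and 1 fell.

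Notch pathway genes rose in 6 of 15 cases with 0 falling (median 0.45, the same as the 0.45 of other otic-gate cells), beside 11.2% of all tested genes rising. Lfng (ENSMUSG00000029570, chromosome 5 from 140607320 to 140615545), the fringe glycosyltransferase that tunes Notch receptors, stood at 62.9 and 74.6 CPM in cKO and 17.9 and 13.6 CPM in control Sfrp2+Sp5+ cells (2.25, SE 0.16, adjusted p = 8.66e-06). Its interaction was 0.94 (SE 0.16, adjusted p = 0.00407). The ligand Dll1 stood at 4.94 and 4.69 CPM in cKO and 0.777 CPM in each control library, from 2 UMIs in each. It passed the filter through the cKO libraries alone, so no test is given, though the count of 6 includes it. The transcriptional effectors Hey1 (0.88) and Hes1 (0.70) also rose with all libraries. The list had 1 gene up without cKO 1, 2 up without cKO 2 and 2 of 9 up after thinning. Without cKO 1 the adjusted p was 0.098 for Hey1 and 0.11 for Hes1. For Hey1 it was 0.081 without cKO 2 and 0.20 after thinning.

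**Figure D4:**
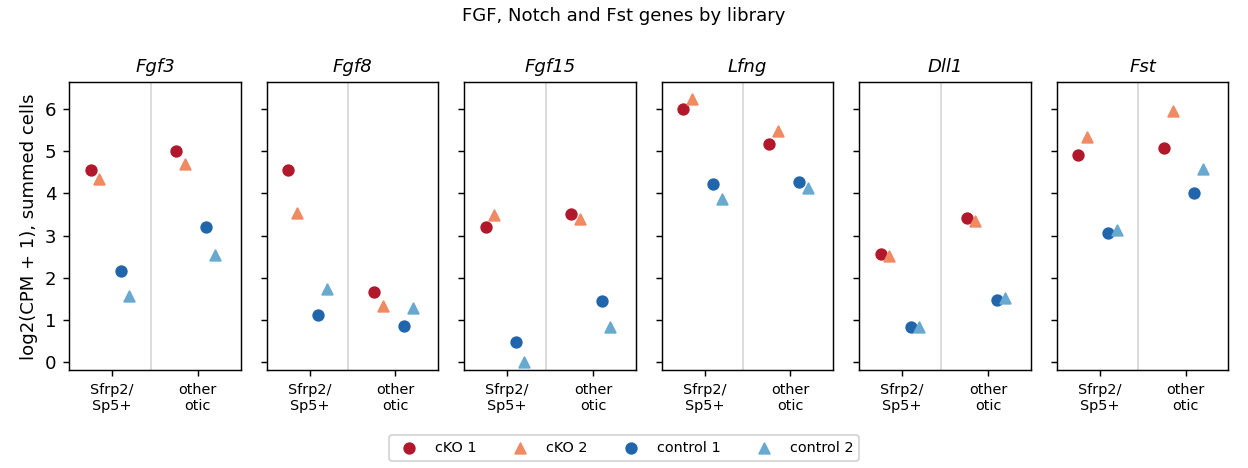
Levels of FGF ligands, Notch pathway genes and Fst, log2(CPM + 1) of summed cells (vertical axis), in Sfrp2+Sp5+ cells and other otic-gate cells by library (cKO red, control blue). Lfng was at 62.9 and 74.6 CPM in cKO and 17.9 and 13.6 CPM in control Sfrp2+Sp5+ cells, and Fgf8 at 22.4 and 10.7 against 1.16 and 2.33 CPM.

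Among 18 tested WNT ligands and receptors, 4 rose and 3 fell, with 0 and 0 without cKO 1 and 0 and 1 without cKO 2. The 4 include Wnt3a, which passed the filter through the cKO libraries alone. Of all tested genes 11.2% rose and 9.03% fell. The R-spondin receptor Lgr4 stood at 20.7 and 18.9 CPM in cKO and 7.38 and 8.93 CPM in control Sfrp2+Sp5+ cells (1.398, adjusted p = 0.00114), with an adjusted p of 0.075 without cKO 1 and 0.054 without cKO 2. The ligand Wnt7b stood at 5.37 and 8.05 CPM in cKO and 24.8 and 19.8 CPM in control cells (-1.58, adjusted p = 0.00108), with an adjusted p of 0.078 without cKO 1. After thinning neither Lgr4 (adjusted p = 0.14) nor Wnt7b (adjusted p = 0.14) passed. Among WNT antagonists and feedback targets outside the gate 5 of 16 fell and 0 rose (median -0.29), against 9.03% of all tested genes falling. None of 15 fell without cKO 1 or without cKO 2, and 1 of 17 fell and 1 rose without control 1. The WNT-inactivating enzyme gene Notum stood at 1.37 and 0.858 CPM in cKO and 7.77 and 11.3 CPM in control cells, and its interaction was -2.34 (adjusted p = 0.00227). It passed the filter within Sfrp2+Sp5+ cells through the control libraries alone, so no test within them is given, though the count of 5 includes it. The general WNT target Axin2 had a log2 change of 0.00 and did not pass. The inhibitor Dkk1 stood at 1.16 and 1.78 CPM in cKO and 17.1 and 3.11 CPM in control cells. Its change of -2.60, given without a test, rested on control 1 and was -0.88 without that library.

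Promoters of markers and of genes named here were read from RefSeq's GRCm38.p6 table, 250 bases before to 50 after the annotated start. Of 16 genes looked up, 11 matched, with 13 promoters. The T-box core GGTGTGA was in none of the 13, on either strand, and in 3.98% of 32851 promoters. The TCF/LEF core CTTTGAT, the letters bound by effectors of WNT signalling, was in 2 of the 13, those of Sp5 and Cxcl12, and in 3.73% of all. The 2 promoters are shown because they hold that core, in capitals (in Cxcl12 as its reverse complement ATCAAAG), and that of Bmp4 because Bmp4 had the lowest adjusted p of the interaction among the named genes. A match is a description and not a binding site.
Sp5, chr2:70474673-70474972, plus strand: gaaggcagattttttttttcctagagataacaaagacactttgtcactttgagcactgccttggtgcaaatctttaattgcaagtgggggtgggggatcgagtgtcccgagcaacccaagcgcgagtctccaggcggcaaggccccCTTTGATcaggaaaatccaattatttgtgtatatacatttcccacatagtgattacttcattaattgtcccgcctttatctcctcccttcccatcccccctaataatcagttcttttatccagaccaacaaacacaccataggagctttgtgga
Cxcl12, chr6:117168285-117168584, plus strand: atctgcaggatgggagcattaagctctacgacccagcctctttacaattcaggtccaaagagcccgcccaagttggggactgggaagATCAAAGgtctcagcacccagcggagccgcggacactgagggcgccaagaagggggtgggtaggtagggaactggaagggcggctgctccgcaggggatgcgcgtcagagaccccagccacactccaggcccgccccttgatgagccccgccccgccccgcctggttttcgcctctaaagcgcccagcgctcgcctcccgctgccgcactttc
Bmp4, chr14:46390620-46390919, minus strand: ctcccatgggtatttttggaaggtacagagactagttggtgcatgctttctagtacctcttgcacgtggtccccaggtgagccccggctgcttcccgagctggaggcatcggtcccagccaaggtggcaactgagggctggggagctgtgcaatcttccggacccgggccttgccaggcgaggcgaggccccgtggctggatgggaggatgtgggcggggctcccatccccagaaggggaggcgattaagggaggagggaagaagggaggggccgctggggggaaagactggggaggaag

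Ventral and nonsensory otic genes fell in 4 of 6 tested cases with 0 rising (median -0.91, against -1.14 in other otic-gate cells). Of all tested genes 11.2% rose and 9.03% fell. Without cKO 1 or cKO 2, 1 of 6 fell, and 1 of 4 after thinning. Gata2, a zinc finger factor of the ventral vesicle, stood at 0.526 and 0.792 CPM in cKO and 14.8 and 17.5 CPM in control Sfrp2+Sp5+ cells and passed the filter through the control libraries alone, so no test is given, though the count of 4 includes it. Otol1, which encodes the otoconial scaffold protein otolin, stood at 15.3 and 27.5 CPM in cKO and 46.2 and 67.2 CPM in control cells (-1.25, adjusted p = 0.00397, and 0.13 without cKO 1 or 0.052 without cKO 2, and 0.15 after thinning). In other otic-gate cells it stood at 7.83 and 12.04 CPM in cKO and 50.9 and 57.7 CPM in control libraries, and its interaction was 1.06 (SE 0.14, adjusted p = 4.47e-04). Among 17 placode and early otic genes 6 rose and 6 fell, with 0 and 3 without cKO 1 and 2 and 2 without cKO 2. The SOXB1 factor Sox2, known for sensory and neural competence, stood at 117 and 124 CPM in cKO and 104 and 90.5 CPM in control cells (0.43, adjusted p = 0.0104, and 0.14 without cKO 1 or cKO 2). Without control 2 its adjusted p was 0.059, and after thinning 0.081.

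**Figure D5:**
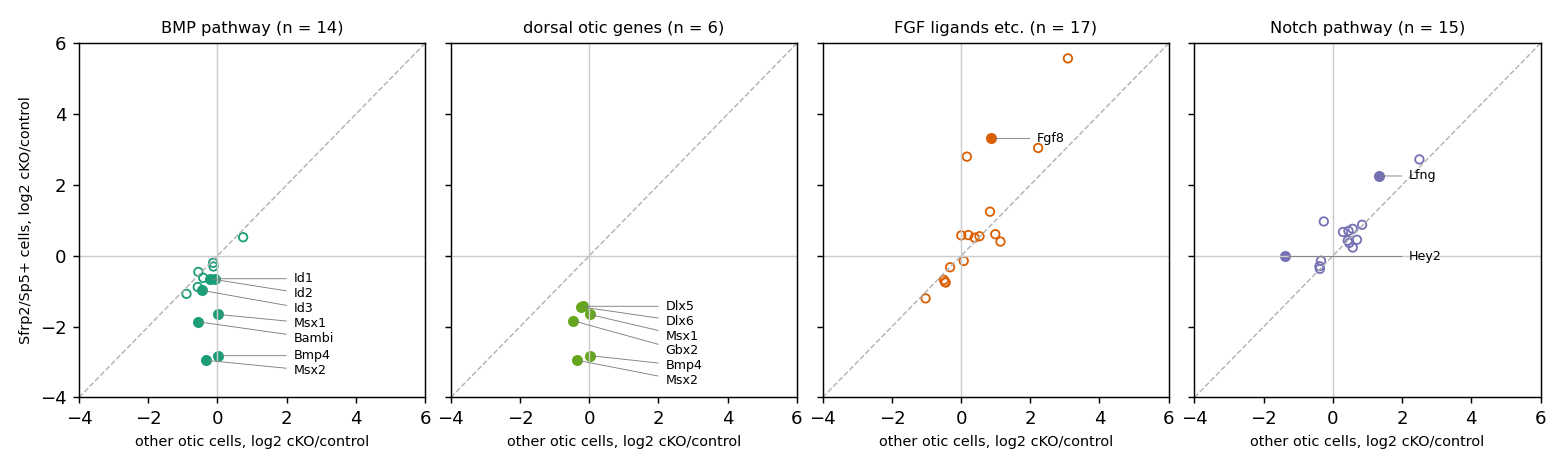
Log2 change, cKO over control, in Sfrp2+Sp5+ cells (vertical axis) against other otic-gate cells of the same libraries (horizontal axis) for tested members of 4 gene lists. Filled and named points passed the interaction of genotype and cell set, and the dashed line marks equal change. Bmp4, at -2.82 against 0.02, and Msx2, at -2.95 against -0.34, lie below it.

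The next 3 lists are read against 11.2% of all tested genes rising and 9.03% falling. In other otic-gate cells 3 of 14 prosensory genes rose and 4 fell. There 7 of 16 neuroblast specification genes rose and 1 fell, and 1 of 17 neuronal differentiation genes rose and 4 fell. In Sfrp2+Sp5+ cells 5 of 14 prosensory genes rose and 3 fell, with Bmp4, Fgf10 and Isl1, a LIM factor of sensory and neural cells (-1.35), falling. Without cKO 1 the counts were 1 and 1, and without cKO 2 they were 2 and 1. Isl1 had an adjusted p of 0.00167, of 0.086 without cKO 1, of 0.069 without cKO 2 and of 0.34 after thinning. Of 12 tested neuroblast specification genes outside the gate 5 rose and 1 fell, with Dll1 in the count, Fgf3 and the transcriptional coactivator Eya2 (1.94, adjusted p = 0.0134) up and the stress-inducible Gadd45g (-1.22, adjusted p = 0.0179) down. Without cKO 1 or without cKO 2, 1 of 15 rose and 0 fell. Eya2 had an adjusted p of 0.21 without cKO 1, 0.13 without cKO 2 and 0.094 without control 1. Gadd45g had one of 0.21 without cKO 1 and 0.22 without cKO 2, and its change was -0.58 without control 2 (adjusted p = 0.34). It was -1.02 after thinning (adjusted p = 0.35). Neuronal differentiation genes fell in 3 of 13 cases, Isl1, Gap43 and Elavl3, in none without cKO 1 or without cKO 2, and in 9 of 17 without control 1. Elavl3 stood at 0.421 and 1.98 CPM in cKO and 1.16 and 20.6 CPM in control cells, and Gap43 at 5.37 and 5.02 against 5.44 and 37.7 CPM. Both were high in control 2 alone, the library with the neuronal and endothelial markers, and without it their log2 changes were 0.28 (Elavl3) and 0.04 (Gap43).

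Of 18 S phase genes 6 rose and 0 fell (median 0.05), against 11.2% of all tested genes rising, led by the ribonucleotide reductase gene Rrm2 at 299 and 277 CPM in cKO and 199.96 and 189 CPM in control Sfrp2+Sp5+ cells (0.69, SE 0.09, adjusted p = 4.81e-04, and 0.075 without cKO 1). Of 18 G2 and M phase genes 4 rose and 3 fell (median 0.03), with 9.03% of all tested genes falling. Without cKO 1 none of either list passed, and without cKO 2 there was 1 S phase rise and 1 G2 and M phase fall. The proliferation marker Mki67 stood at 101 and 131 CPM in cKO and 235 and 215 CPM in control cells (-0.83, adjusted p = 7.39e-04, and 0.081 without cKO 1). In leukocyte-like cells Mki67 stood at 313 and 249 CPM in cKO and 451 and 399.6 CPM in control libraries. Mki67 had a change of 0.08 in Sfrp2+Sp5+ cells gated after thinning to 20000 UMIs. Hedgehog genes fell in 3 of 8 cases with 0 rising (median -0.46), against 6 of 10 in other otic-gate cells (median -0.52), and in 0 of 7 without cKO 1 or without cKO 2. Among them was the co-receptor Cdon at 8.21 and 7.92 CPM in cKO and 34.9 and 24.8 CPM in control cells (-1.77, adjusted p = 1.71e-04, and 0.061 without cKO 1 or 0.057 without cKO 2, and 0.11 after thinning).

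Among 10 tested genes of the retinoic acid pathway, 2 rose and 3 fell, and 2 rose and 0 fell without cKO 1 or without cKO 2. The 3 include Cyp26b1, which passed the filter through the control libraries alone. The retinol dehydrogenase gene Rdh10 stood at 9.47 and 7.33 CPM in cKO and 26.01 and 22.5 CPM in control cells (-1.43, adjusted p = 8.70e-04, and 0.052 without cKO 1 or 0.068 without cKO 2, and 0.10 after thinning). Read against 11.2% of all tested genes rising and 9.03% falling, 1 of 12 junction genes rose and 2 fell, 2 of 10 SOXB and neural progenitor genes rose and 2 fell, glycolysis and hypoxia genes rose in 3 of 11 with 0 falling, and dissociation stress genes rose in 2 and fell in 1 of 9. Without cKO 1 no junction, SOXB or stress gene passed and 1 of 10 glycolysis and hypoxia genes rose. Without cKO 2 the counts were the same except for 1 SOXB gene that rose, and without control 1 SOXB genes fell in 7 of 15. In the 4-gene list of Cxcl12 and chemokine receptors, Cxcl12 rose and the receptors Cxcr4 (0.43) and Ackr3 (0.62) did not pass. In other otic-gate cells 2 of the 4 rose and 0 fell, and 0 of 4 interactions passed. Of 5 sex-linked genes 0 passed by edgeR.

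Among all genes with at least 10 CPM on average, the largest rise in Sfrp2+Sp5+ cells was that of the ubiquitin gene Ubb, at 2043 and 2053 CPM in cKO and 212 and 266 CPM in control cells (3.22, SE 0.09, adjusted p = 2.75e-09). The shift was also present in leukocyte-like cells, where Ubb stood at 845 and 964 CPM in cKO and 110.3 and 157 CPM in control libraries. It was thus not particular to otic cells.

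Other large rises were those of the metallothionein Mt1 (2.76), the collagen-processing enhancer Pcolce2 (2.64), the heparan sulfate sulfotransferase Hs3st1 (1.94), the actin-filament protein Afap1l1 (1.88) and Spp1, osteopontin (2.87). Pcolce2 stood at 87.8 and 96.9 CPM in cKO and 17.5 and 14.8 CPM in control cells. Large falls included those of the integrin subunit Itga4 (-3.36), the zinc finger gene Zfp536 (-3.10), the growth factor Tgfb2 (-3.09), the noncoding Mir100hg (-2.81), the GDNF receptor Gfra1 (-2.72), Tsix (-2.69), the antisense partner of Xist, and Tent5a (-2.67). Itga4 stood at 1.47 and 3.102 CPM in cKO and 30.3 and 24.1 CPM in control cells. It needed the control libraries to pass the filter on low counts, so no test of it is given. The genes with large rises and falls were picked for groups that did not overlap and for passing the threshold, so neither is a result about them. Among all tested genes the groups did not overlap for 63.4%. With Itga4 left out, adjusted p by edgeR ran from 4.91e-07 (Pcolce2 and Mir100hg) to 0.0164 (Tsix). Tsix moved with Xist and was at -1.52 without cKO 2 (adjusted p = 0.064), and it did not pass without control 1 (adjusted p = 0.058) or after thinning (adjusted p = 0.22). Spp1 had an adjusted p of 0.051 without cKO 2 and 0.19 after thinning, Afap1l1 of 0.084 without cKO 1 and 0.053 without cKO 2, and Tgfb2 of 0.079 without cKO 1 and 0.069 without cKO 2. Tgfb2 had a change of -0.56 among cells with at least 3 Sfrp2 UMIs.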

How the data were processed

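Each library's filtered 10x matrix holds UMI counts per gene and barcode, deposited by the authors without normalization. The count matrices carry cellranger 6.0.1 per the file headers, whereas Cell Ranger 3.1.0 is listed in the submitters' processing notes, with Seurat 4.1.0, FastQC 0.11.4 and mm10. Cells with at least 1000 genes and at most 10% mitochondrial UMIs were kept, and the gate was applied to raw counts. Scrublet (scanpy 1.11.5) doublet removal, at 0.8% per 1000 barcodes, was an alternative, so doublets stayed in the main values. Library pairs shared 2 to 8 barcodes, none of them among Sfrp2+Sp5+ cells.

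Counts were summed per library and cell set and tested with edgeR 4.0.16 (quasi-likelihood, TMM, filterByExpr, Benjamini-Hochberg) in R 4.3.3 with limma 3.58.1, cKO over control, with 2 libraries each. DESeq2 1.42.0, RLE factors, other gates, cell filters, thinning and leaving out each library were alternatives. An exact permutation test of 2 against 2 cannot go below p = 0.333. The fit was tested on simulated data, where it recovered 62.5% of genes changed by 1 and 98.0% of those changed by 2 on the log2 scale among 11146 genes. For the interaction it recovered 55% and 91% among 11414 genes. The simulated counts took their dispersion from these same libraries, so they cannot show how calls would hold between embryos. Replicate numbers were not used to pair the libraries in the main fits.

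Named genes were the targets, the markers, called list members, the largest differences from other otic-gate cells, and the largest interactions past the threshold. The largest changes past the threshold at 10 CPM or more were also named, among genes whose groups did not overlap. Axin2, Cxcr4, Ackr3 and the BMP list members outside that rule were named after their values were seen. The cells, gene lists and rules were chosen with earlier results of these data known. Positions are from GENCODE vM21, which held 32158 of 32285 gene IDs. Among named genes, Napsa, Fgf15, Dll1 and Wnt3a passed filterByExpr through the cKO libraries alone and Notum, Gata2 and Cyp26b1 through the control libraries alone. Fgf8 and Fgf20 also needed the cKO libraries to pass it, and Itga4 and Dkk1 the control libraries. The tests of these genes within Sfrp2+Sp5+ cells were left out after the results were seen, while list counts and their medians still include them. Some genes that met the rule are not reported here.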

Additional observations from a re-analysis of the deposited data

Results flagged for a closer look

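Of the 170 genes whose change between genotypes differed between Sfrp2+Sp5+ cells and the other otic-gate cells in the interaction test by edgeR, the 5 highest and 5 lowest differences among those with at least 10 CPM are given here. The difference was -2.83 for Bmp4, -2.62 for Msx2 and -2.12 for Gata2, whose levels are given above. It was 1.66 for Itih5, a hyaluronan-binding protein gene, at 46.0 and 50.8 CPM in cKO and 29.5 and 21.7 CPM in control Sfrp2+Sp5+ cells, against 20.4 and 19.4 CPM (cKO) and 32.6 and 33.5 CPM (control) in the others. It was 2.01 for the desmosomal gene Dsp, 1.81 for Spp1, 1.75 for Capn6 and 1.72 for Crym. It was -3.10 for the factor Ebf1 and -2.24 for the neuronal gene Stmn2, both high in control 2 alone among control Sfrp2+Sp5+ cells. Ebf1 stood at 10.8 and 3.696 CPM in cKO and 1.553 and 31.1 CPM in control Sfrp2+Sp5+ cells, and Stmn2 at 2.74 and 13.5 against 4.27 and 67.9 CPM.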

How the results depend on the processing

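In Sfrp2+Sp5+ cells, the genes higher and lower numbered 708 and 386 by DESeq2, 822 and 594 with at least 3 Sfrp2 UMIs, 719 and 634 with 2 or 3, and 117 and 131 after thinning to 20000 UMIs. Leaving out 1 library gave 39 to 1239 higher and 51 to 788 lower. In other otic-gate cells 1354 were lower by DESeq2, and leaving out 1 library gave 1172 to 2250 higher and 884 to 2248 lower, the least without control 2. Interactions numbered 21 higher and 50 lower by DESeq2, 107 and 193 without a count filter, 80 lower with at least 3 Sfrp2 UMIs, 28 higher against cells within the 3 upper limits and 77 lower after thinning to 20000. Leaving out 1 library gave 68 to 111 higher and 126 to 246 lower. The mean share was 19.0% in cKO and 1.20% in control libraries with at least 3 Sfrp2 UMIs, 24.0% in cKO with doublets removed, 2.71% and 0.191% thinned to 10000, 8.63% and 1.06% thinned to 20000, and 7.01% and 1.42% of all cells. Signs turned for Mki67 (0.076) and Top2a (0.13) after thinning to 20000, and without control 2 for Elavl3 (0.28), Gap43 (0.038) and Pou3f3 (0.84), whose values with 1 library left out ran from -4.46, -2.71 and -0.53. The interaction of Capn6 was -0.24 within the upper limits. Those of Ebf1 and Stmn2 were 0.27 and 0.36 without control 2, and as low as -4.11 and -3.46 with another library left out. The cause was not tested. With the replicate number as a block, 1196 genes were higher and 910 lower. The pairing check gave a correlation of -0.00832 between the within-group differences. It found no shift shared by libraries of equal number and cannot tell whether they were processed together. Fits in cells thinned to 10000 UMIs were not run.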
